A study of Homo sapiens with 12 samples.

Results

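The genes described here are 34 genes of mitosis and the G2/M transition, taken as a fixed list of symbols from the 38478 genes quantified in OPM-1 cells. All 34 were found under their own symbol, and all 34 were expressed above the level required for testing. They are a list of genes of known function, drawn up with earlier results of these samples known. For ordering the results they are grouped by role: entry into mitosis (CCNA2, CCNB1, CCNB2, CDK1, CDC25C, PLK1, AURKA and FOXM1), spindle checkpoint and chromosomal passengers (BUB1, BUB1B, TTK, AURKB and BIRC5), anaphase promotion (CDC20 and UBE2C), centromere and kinetochore (CENPA, CENPE, CENPF, NDC80 and NUF2), spindle and kinesins (KIF11, KIF2C, KIF4A, TPX2, NUSAP1, DLGAP5 and HMMR), cytokinesis (KIF20A, KIF23, PRC1, ANLN and ECT2), and chromosomes and proliferation markers (TOP2A and MKI67).

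A cell enters mitosis when CDK1, activated by its cyclin partners and by CDC25 phosphatases, phosphorylates many substrates. The spindle checkpoint then holds anaphase back until every kinetochore is attached to microtubules, after which CDC20 and the anaphase-promoting complex trigger the destruction of cyclin B and the separation of sister chromatids. Most of the genes involved are transcribed together late in the cell cycle, through CCAAT boxes and the cell cycle genes homology region (CHR) in their promoters and with the transcription factor FOXM1, so the level of their mRNAs in a culture is commonly read as a proliferation signature, also in myeloma.

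OPM-1 is a human multiple myeloma cell line. The cultures received DMSO (the solvent control), 0.1 μM lenalidomide (LEN), 1 μM AI-10-104, or both drugs together (LEN+AI-10-104), and were harvested after 48 h. LEN is an immunomodulatory drug that redirects the cereblon ubiquitin ligase to the transcription factors IKZF1 and IKZF3, and AI-10-104 keeps RUNX proteins from binding their partner CBFβ. Each condition had 3 biological replicates, 12 samples in all, and the polyadenylated RNA was sequenced. All groups are cultures of this 1 line at 1 dose of each drug and 1 time.

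Expression is given in RPKM, reads scaled by gene length and by the total of reads counted on genes. The samples held 16352548 to 31386210 reads on genes, and the 3 LEN+AI-10-104 samples were among the smaller libraries (16352548 to 20419807 reads). The smallest number of reads behind a value of these genes was 125, for CDC25C, and 421 for the others. The 8 plasma cell and myeloma markers examined were all above 10 RPKM in every sample (17.9 to 654 RPKM), whereas 7 of 10 markers of other cells stayed under 0.5 RPKM throughout, with CD3D and EPCAM at 0. The exceptions were CD3E at up to 0.551 RPKM, PECAM1 at 0.932 to 1.47 RPKM and the hemoglobin gene HBB at 18.2 to 22.9 RPKM, which was similar in the 4 conditions (means of 18.9 to 20.2 RPKM). AI-10-104 replicate 2 stood apart from replicates 1 and 3 of that condition in the level of the mitotic genes, as described below. Results that rest on it are given with and without it. Per sample, the correlation over genes of the relative, not absolute, level with GC content was -0.25 and -0.29 in replicates 1 and 3 and -0.02 in replicate 2. Fits without replicate 2 are therefore not taken as the cleaner ones.

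Many promoters of these genes share sequence features that the choice of genes did not use. RefSeq promoter sequence (GRCh38.p14) was at hand for 28 of the 34 genes, taken as the 250 bases before the first listed transcription start. The table held none for AURKA, TTK, TPX2, UBE2C, BIRC5 and FOXM1. The letters of the CHR, TTTGAA or TTCGAA on either strand, were present in 16 of the 28 promoters (57.1%), against 14.6% of all 27305 promoters of the same length. CCAAT, on either strand, was present in 21 of the 28 (75.0%), against 33.0% of all promoters, and both motifs in 14 (50.0%), against 5.24%. The promoters of KIF2C, CDC25C, CENPE, NDC80 and NUF2 held neither motif. The matches lay close to the start, with a median distance of 25.5 bases (range 12 to 188) for the CHR letters and of 82 bases (range 17 to 244) for CCAAT. These are matches of letters in a window and say nothing of which factor was bound in these cells. No other letters were searched, so a promoter without TTTGAA or TTCGAA is not shown to lack a CHR.

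The promoters printed here belong to 4 genes that were lower with LEN+AI-10-104 (CENPF, CCNB1, DLGAP5 and CENPA) and to HMMR, which was higher with AI-10-104. Each of them holds a motif. Among the other genes lower with the combination, KIF2C holds neither of the motifs searched and CCNA2 holds only CCAAT of them. ECT2 holds both and TPX2 had no promoter sequence. Capitals mark the letters CCAAT and the CHR letters TTTGAA, each read on either strand. The positions in GRCh38 are chr1:214602945-214603194 on the plus strand for CENPF, chr5:69166900-69167149 on the plus strand for CCNB1, chr14:55191586-55191835 on the minus strand for DLGAP5, chr2:26785806-26786055 on the plus strand for CENPA and chr5:163460382-163460631 on the plus strand for HMMR.
CENPF: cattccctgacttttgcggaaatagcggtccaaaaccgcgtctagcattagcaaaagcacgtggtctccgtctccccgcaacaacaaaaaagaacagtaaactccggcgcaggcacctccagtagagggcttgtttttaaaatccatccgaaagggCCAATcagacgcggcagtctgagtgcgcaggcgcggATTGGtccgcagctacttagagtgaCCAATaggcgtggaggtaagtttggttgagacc
CCNB1: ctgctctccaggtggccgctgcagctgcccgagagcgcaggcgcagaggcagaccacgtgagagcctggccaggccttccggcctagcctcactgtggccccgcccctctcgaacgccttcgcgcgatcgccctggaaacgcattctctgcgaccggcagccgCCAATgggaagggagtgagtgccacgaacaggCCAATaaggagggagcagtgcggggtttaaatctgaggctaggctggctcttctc
DLGAP5: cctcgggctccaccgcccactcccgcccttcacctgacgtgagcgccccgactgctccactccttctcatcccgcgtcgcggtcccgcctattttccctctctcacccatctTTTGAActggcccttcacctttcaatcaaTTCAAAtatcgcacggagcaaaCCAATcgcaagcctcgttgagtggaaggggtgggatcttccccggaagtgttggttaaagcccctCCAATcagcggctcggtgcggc
CENPA: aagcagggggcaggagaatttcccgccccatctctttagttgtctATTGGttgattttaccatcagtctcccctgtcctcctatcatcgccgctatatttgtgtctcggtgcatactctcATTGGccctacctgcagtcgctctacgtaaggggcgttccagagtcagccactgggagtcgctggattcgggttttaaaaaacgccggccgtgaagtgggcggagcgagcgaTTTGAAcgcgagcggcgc
HMMR: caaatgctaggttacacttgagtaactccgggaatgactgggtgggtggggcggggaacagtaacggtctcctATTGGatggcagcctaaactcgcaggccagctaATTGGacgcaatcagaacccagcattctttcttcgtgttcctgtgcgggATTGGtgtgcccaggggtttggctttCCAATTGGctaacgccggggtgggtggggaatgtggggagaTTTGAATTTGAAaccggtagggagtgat
CENPF and CCNB1 hold CCAAT boxes (3 and 2) without the CHR letters searched, TTTGAA or TTCGAA, while DLGAP5, CENPA and HMMR hold both motifs. HMMR, the gene that moved upward, carries 2 adjoining copies of TTTGAA and 5 matches of CCAAT, of which the last pair overlap. With LEN+AI-10-104 the median log2 fold change was -0.092 for the 16 genes with the CHR letters, 3 of which passed as lower. It was -0.08 for the 12 genes without them, 4 of which passed as lower. The split depends on the letters searched, and whether a CHR goes with the decrease was not tested.

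In DMSO the mitotic genes were highly expressed. Their mean levels ranged from 3.49 RPKM for CDC25C to 139 RPKM for PLK1, with a median of 56.8 RPKM against 8.5 RPKM over all genes tested. All but CDC25C were above 10 RPKM in every sample. The replicates were close to each other, with a median coefficient of variation within conditions of 3.36%, and the median standard error of a log2 fold change was 0.044 for these genes against 0.062 over all genes.

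Treated and control samples were compared as log2(RPKM + 0.1) with limma, fitted to all 12 samples and to 11241 genes, those averaging 0.5 RPKM or more over the samples, with Benjamini-Hochberg adjustment over all of these genes. A gene is said to pass at an adjusted p of at most 0.05, and a larger change is one that also reaches an absolute log2 fold change of 0.32. Counts at an unadjusted p or from voom are given without the share of all genes, except the unadjusted count for the interaction. Such counts are not read as results about these genes. The comparisons with DMSO share the same 3 control samples. Since RNA from whole cultures was measured, fewer cells in G2 or mitosis and less mRNA per such cell cannot be told apart.

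Taken as a set, the mitotic genes were at the DMSO level with LEN and slightly lower with the combination. The mean of log2(RPKM + 0.1) over the 34 genes, relative to the DMSO mean, was 0.015, -0.01 and -0.006 in the DMSO samples and 0.019, -0.017 and 0.012 with LEN. With LEN+AI-10-104 it was -0.075, -0.086 and -0.104, so that all 3 samples lay below all DMSO and LEN samples. With AI-10-104 alone it was -0.025, -0.105 and -0.017: replicate 2 lay with the combination, and replicates 1 and 3 lay just under the lowest LEN value or level with it. The group means were 0.0046 ± 0.019 with LEN, -0.049 ± 0.048 with AI-10-104 and -0.088 ± 0.014 with LEN+AI-10-104 (SD, n = 3 each), where DMSO had an SD of 0.013. No test is given for this mean, since the genes were chosen with earlier results of these data known.

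**Figure D1:**
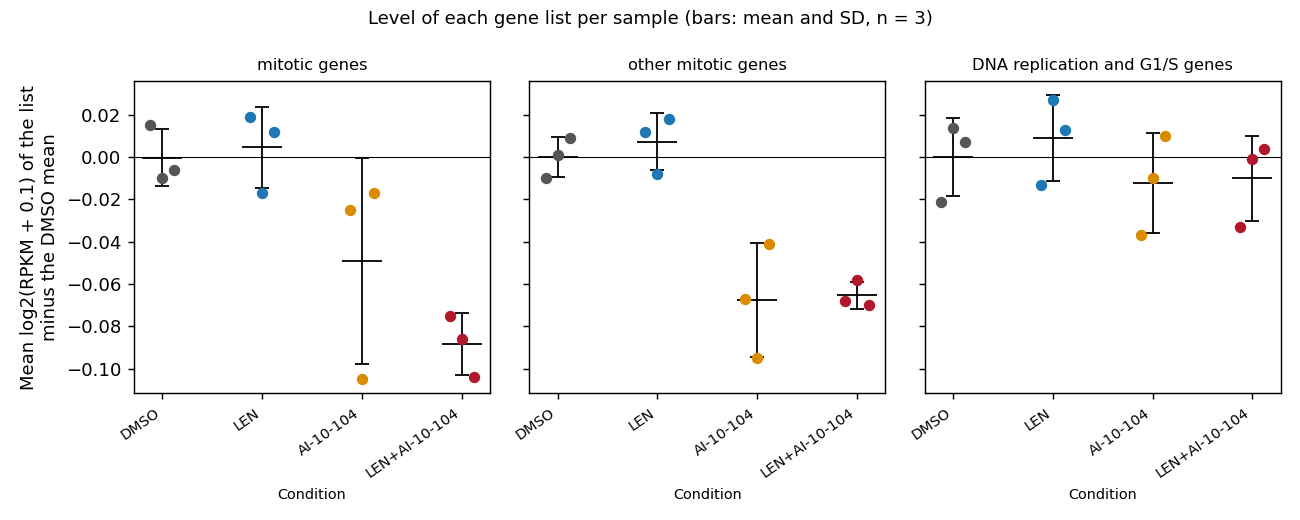
Mean log2(RPKM + 0.1) of 3 gene lists in each sample minus the mean of the 3 DMSO samples (vertical axis, log2 units), for the 34 mitotic genes (left), 85 other mitotic genes (middle) and 50 DNA replication and G1/S genes (right). Points are samples and bars are the mean and SD of the 3 replicates of a condition. The combination samples sit at -0.075 to -0.104 on the left, AI-10-104 replicate 2 sits with them at -0.105, and the replication genes stay between -0.037 and 0.027 in all samples.

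**Figure D2:**
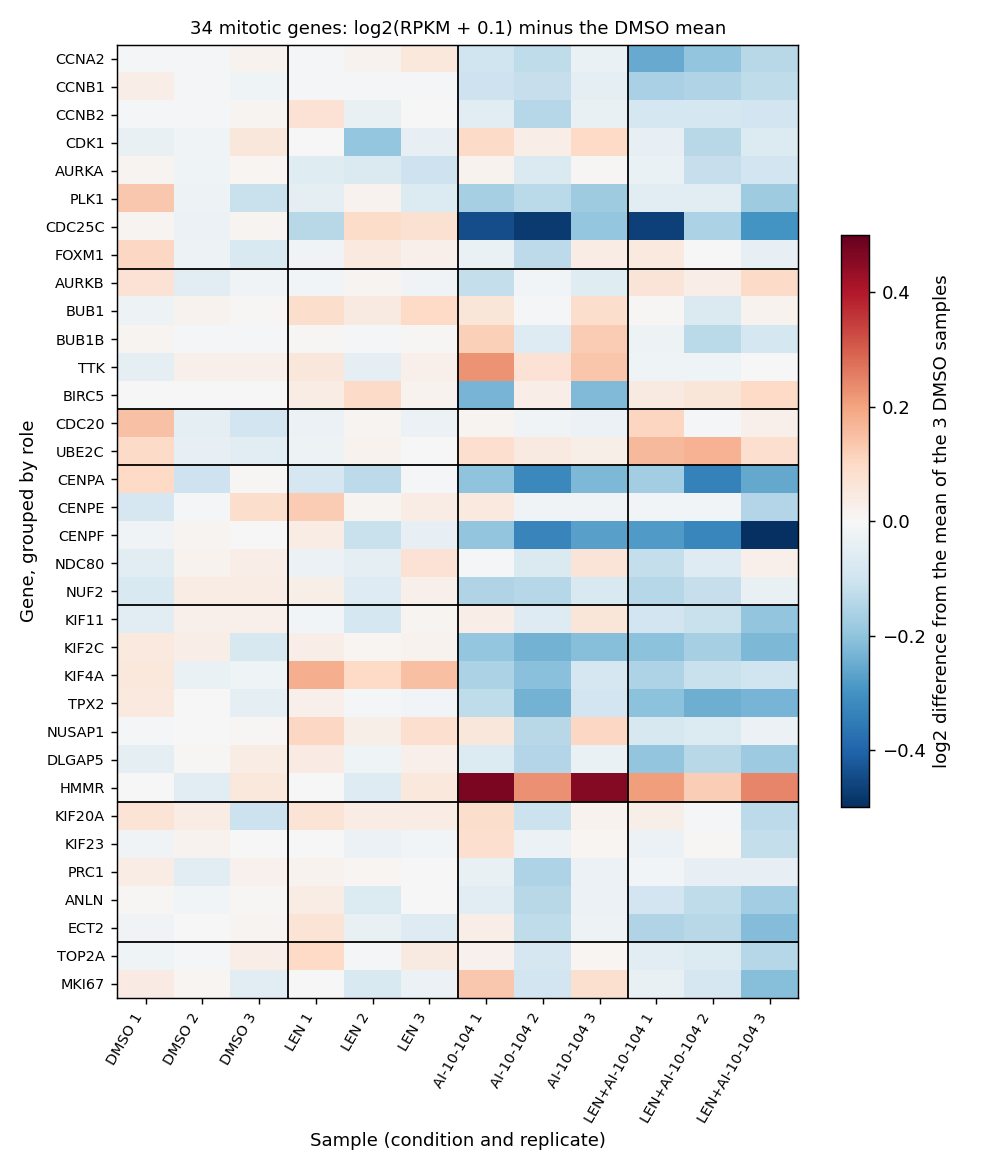
Difference of log2(RPKM + 0.1) from the mean of the 3 DMSO samples (color, blue lower and red higher, the scale ends at 0.5) for the 34 genes (rows, separated by role) in the 12 samples (columns, separated by condition). CENPF, CENPA and CDC25C are blue in all AI-10-104 and LEN+AI-10-104 samples, HMMR is red in the same samples, and the LEN columns are pale.

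LEN alone, which asks what a low dose of the drug does to these genes in OPM-1 cells, left no mitotic gene past the threshold. At the adjusted p, 0 of 34 were higher (0.979% of all genes tested) and 0 were lower (0.151%), and 0 reached the larger change in either direction (0.587% and 0.0623% of all genes). At an unadjusted p under 0.05 there were 3, and voom, limma's method for read counts, also gave 0 in each direction. The median log2 fold change was -0.00065 (-0.0021 over all genes), with 17 genes above 0 and 17 below (51.0% of all genes were below). The 95% interval of every one of the 34 log2 fold changes lay within 0.32 of 0 on both sides, and its farthest bound was 0.23, so a larger change with LEN was outside the interval of each gene. KIF4A, at 0.14, had the largest estimate and the smallest adjusted p (0.15). All 3 LEN samples lay above all 3 DMSO samples for BUB1, KIF4A, BIRC5 and NUSAP1, which is 4 of 34 against 9.42% of all genes, and below them for AURKA, 1 of 34 against 7.03%.

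AI-10-104 alone, the inhibitor without LEN, lowered a few of the genes and raised HMMR. At the adjusted p, 4 of 34 were lower than in DMSO (KIF2C, CENPF, CENPA and TPX2, against 2.46% of all genes) and 1 was higher (HMMR, against 2.09%). HMMR also reached the larger change (1 of 34, against 0.685% of all genes upward), and 0 did so downward (1.09%, 14 genes were at an unadjusted p under 0.05 in either direction). The median log2 fold change was -0.041 (0.0081 over all genes), with 23 genes below 0 (47.0% of all genes), and voom gave 7 lower and 1 higher. All 3 AI-10-104 samples lay below all DMSO samples for 12 of 34 genes (10.2% of all genes) and above them for 2, TTK and HMMR (13.1%). Without AI-10-104 replicate 2 the median was -0.0027, 5 genes passed as lower (BIRC5, KIF2C, CENPF, TPX2 and CENPA) and 3 as higher (HMMR, TTK and BUB1B), while over all genes the shares also rose, to 7.65% lower and 6.29% higher. The number passing as lower was 1 without DMSO replicate 1, 2 without DMSO replicate 2, 1 without DMSO replicate 3, and 2 without AI-10-104 replicate 1, AI-10-104 replicate 3 or LEN+AI-10-104 replicate 3, in fits where 0.996% to 2.3% of all genes were lower.

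With the combination, the arm that asks what both drugs do together, more of these genes passed as lower against DMSO. That count is no test of the combination against AI-10-104. In that comparison 2 of 34 genes were lower and 2 higher (5.84% and 9.13% of all genes). At the adjusted p, 8 of 34 were lower than in DMSO (CENPF, TPX2, CCNA2, KIF2C, CCNB1, DLGAP5, CENPA and ECT2), against 3.0% of all genes, and 0 were higher (5.64% of all genes). CENPF alone reached the larger change (1 of 34, against 0.641% of all genes downward and 2.3% upward). The median log2 fold change was -0.086, whereas over all genes it was 0.020, and 28 of the 34 genes were below 0 (42.8% of all genes). At an unadjusted p under 0.05 there were 18 genes in either direction, and voom gave 9 lower and 1 higher. All 3 combination samples lay below all DMSO samples for 18 of 34 genes (11.1% of all genes) and above them for 2, BIRC5 and HMMR (18.1%). Without DMSO replicate 3, 5 genes passed as lower (KIF2C, TPX2, CENPF, CCNB1 and CCNA2, against 1.57% of all genes in that fit), and without LEN+AI-10-104 replicate 3 there were 6 (1.93%), with none at the larger change. HMMR passed as higher without AI-10-104 replicate 2 (6.48% of all genes), as did UBE2C without DMSO replicate 1 (4.99%).

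**Figure D3:**
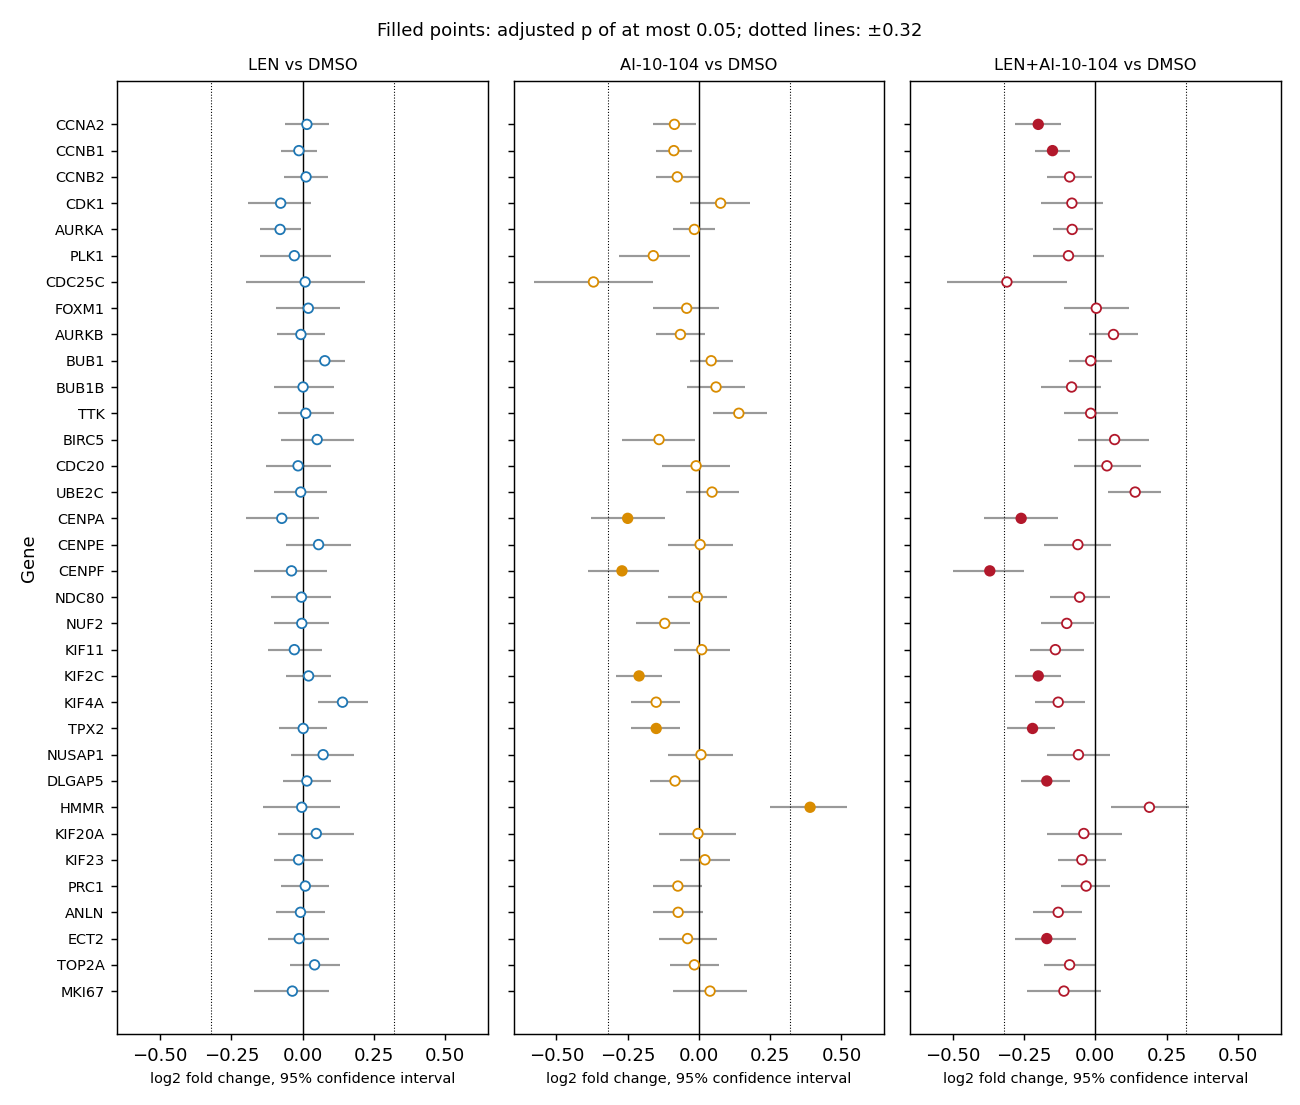
Log2 fold change of each of the 34 genes against DMSO (points) with its 95% interval (lines) for LEN (left), AI-10-104 (middle) and LEN+AI-10-104 (right), from limma on log2(RPKM + 0.1). Filled points passed at an adjusted p of at most 0.05 and dotted lines mark 0.32 on each side of 0. No point is filled for LEN, 5 are filled for AI-10-104 and 8 for LEN+AI-10-104, of which CENPF at -0.37 lies past the dotted line.

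Adding AI-10-104 to LEN was also compared with LEN alone, and adding LEN to AI-10-104 with AI-10-104 alone. Against LEN, 7 of 34 genes were lower in the combination at the adjusted p (KIF4A, CCNA2, KIF2C, TPX2, CENPF, DLGAP5 and CCNB1, against 2.14% of all genes) and 0 were higher (2.48%). CENPF reached the larger change (1 of 34, against 0.81% of all genes downward and 0.872% upward), but not without LEN replicate 1 or LEN+AI-10-104 replicate 3. The median log2 fold change against LEN was -0.095 (0.023 over all genes), with 29 of 34 genes below 0 (41.6% of all genes). At an unadjusted p under 0.05 there were 20 genes, and voom gave 8 lower and 0 higher. Here too UBE2C passed as higher without DMSO replicate 1 (2.48% of all genes) and HMMR without AI-10-104 replicate 2 (3.08%).

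Against AI-10-104, the genes split. BIRC5 and AURKB were higher in the combination (2 of 34, against 9.13% of all genes), TTK and KIF11 were lower (2 of 34, against 5.84%), and 0 reached the larger change (3.16% of all genes upward and 0.471% downward). CCNA2 missed the threshold at an adjusted p of 0.05002. Both counts changed when single libraries were left out, and so did the shares of all genes. Without AI-10-104 replicate 2, 11 genes were lower (BUB1B, HMMR, TTK, NUSAP1, MKI67, KIF11, ECT2, CCNA2, TPX2, DLGAP5 and CDK1, against 9.83% of all genes), and the 2 higher genes were BIRC5 and AURKB (14.8%). No gene was lower without AI-10-104 replicate 1, AI-10-104 replicate 3, LEN+AI-10-104 replicate 1 or LEN+AI-10-104 replicate 2, and 1 was lower without LEN+AI-10-104 replicate 3, DMSO replicate 2, DMSO replicate 3 or LEN replicate 3, in fits where 1.09% to 5.77% of all genes were lower. The number higher was 0 without AI-10-104 replicate 1, AI-10-104 replicate 3 or any LEN+AI-10-104 replicate and 1 without DMSO replicate 2, DMSO replicate 3 or any LEN replicate, where 2.43% to 9.06% of all genes were higher.

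Whether LEN acted differently in the presence of AI-10-104 was tested as the interaction of the drugs. No mitotic gene passed (0 of 34, against 0.0% of all genes). The smallest adjusted p was 0.3 among the 34 genes and 0.16 over all genes, and 4 of the 34 were at an unadjusted p under 0.05, as were 1621 of all genes (14.4%), while voom also gave 0. Without AI-10-104 replicate 2, 4 genes passed: BIRC5 on the higher side (3.69% of all genes) and NUSAP1, BUB1B and HMMR on the lower side (1.11%).

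Among the genes of mitotic entry, the cyclins A2 and B1 fell with the combination. CCNA2 (GENCODE v44 places it on chromosome 4 from 121816444 to 121823883 of GRCh38, the build of all gene positions below), the gene of cyclin A2, a CDK partner in S phase and G2, was at 115, 115 and 117 RPKM in DMSO, 115, 117 and 120 with LEN, 108, 106 and 113 with AI-10-104, and 97.2, 101 and 105 with LEN+AI-10-104. The combination samples were all below the AI-10-104 samples, and these were all below the DMSO samples. The log2 fold change against DMSO was -0.20 with the combination (SE 0.035, adjusted p = 0.0055), where CCNA2 fell by 12.9%, and -0.086 with AI-10-104 (SE 0.035, adjusted p = 0.18).

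CCNB1 (chromosome 5 from 69167135 to 69178245) encodes cyclin B1, the activating partner of CDK1 at mitotic entry. It was at 134, 130 and 129 RPKM in DMSO, 130, 130 and 130 with LEN, 122, 121 and 127 with AI-10-104, and 117, 118 and 120 with LEN+AI-10-104. The replicates were tight in each condition, and neither drugged group with AI-10-104 overlapped DMSO. The log2 fold change with the combination was -0.15 (SE 0.028, adjusted p = 0.0077), and with AI-10-104 it was -0.088 (SE 0.028, adjusted p = 0.10). CCNB2, encoding cyclin B2, lay between 56.2 and 56.5 RPKM with the combination and between 59.8 and 60.6 in DMSO, at a log2 fold change of -0.09 that did not pass (adjusted p = 0.15).

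CDC25C (chromosome 5 from 138285269 to 138338355), the phosphatase that removes inhibitory phosphates from CDK1, had the lowest level of the 34 genes. It was at 3.53, 3.42 and 3.53 RPKM in DMSO, 3.16, 3.73 and 3.69 with LEN, 2.54, 2.48 and 3.04 with AI-10-104, and 2.5, 3.12 and 2.82 with LEN+AI-10-104. Every sample with AI-10-104, with or without LEN, was below every DMSO sample. Its log2 fold change was -0.37 with AI-10-104 (95% interval -0.58 to -0.16), with an adjusted p of 0.05038 that just missed the threshold, and -0.31 with the combination (-0.52 to -0.10, adjusted p = 0.071), and its SE of 0.10 was the largest among the 34 genes. CDC25C shares 293 exon bases with FAM53C on the opposite strand (12.7 to 14.1 RPKM). In all, 9 of the 34 genes share exon bases with an opposite-strand gene among those quantified. CCNA2 shares 254 with EXOSC9 (30.7 to 35.3 RPKM), and FOXM1 shares 782 with ITFG2 (3.65 to 4.43 RPKM). Although the library kit was directional, the sources used here do not state whether the counting used the strand.

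The kinases and the transcription factor of this group differed little between conditions. CDK1, the mitotic kinase itself, ranged from 49.2 to 60.3 RPKM over the 12 samples, PLK1 from 123 to 153 RPKM, AURKA from 50.0 to 54.8 RPKM and FOXM1 from 42.5 to 50.0 RPKM. None of them passed in a comparison with DMSO. FOXM1, a transcription factor for many of the other genes, was at 46.6 ± 3.05 RPKM in DMSO, 45.2 ± 2.63 with AI-10-104 and 46.7 ± 1.47 with LEN+AI-10-104 (SD, n = 3 each), and its log2 fold change with the combination was 0.0037 (95% interval -0.11 to 0.12). PLK1, a kinase of mitotic entry and spindle assembly, had all AI-10-104 samples (123 to 127 RPKM) below all DMSO samples (129 to 153 RPKM), at a log2 fold change of -0.16 that did not pass (adjusted p = 0.14).

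Of the checkpoint and passenger genes, none passed against DMSO in any condition. BUB1 and BUB1B, checkpoint kinase and pseudokinase at the kinetochore, ranged over the 12 samples from 97.6 to 110 RPKM and from 43.7 to 52.4 RPKM. TTK (chromosome 6 from 80003887 to 80042527), the checkpoint kinase also called MPS1, was at 15.9, 16.7 and 16.7 RPKM in DMSO, 17.1, 15.9 and 16.7 with LEN, 19.2, 17.3 and 18.1 with AI-10-104, and 16.2, 16.2 and 16.4 with LEN+AI-10-104. The AI-10-104 samples were above all others. The combination was lower than AI-10-104 (log2 fold change -0.16, SE 0.044, adjusted p = 0.032), and AI-10-104 against DMSO did not pass (0.14, SE 0.044, adjusted p = 0.084). Without AI-10-104 replicate 2 TTK passed in both comparisons, at -0.20 (adjusted p = 0.0092) and 0.18 (adjusted p = 0.022), and the lower level in the combination passed in 7 of the 12 fits with a sample left out.

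BIRC5 (chromosome 17 from 78214186 to 78225636) encodes survivin, a subunit of the chromosomal passenger complex and an inhibitor of apoptosis. Its values were 88.9, 88.9 and 88.8 RPKM in DMSO, 91.3, 95.0 and 90.0 with LEN, 75.7, 90.9 and 76.2 with AI-10-104, and 91.6, 92.8 and 95.1 with LEN+AI-10-104. In AI-10-104, replicate 2 stood with the other conditions and replicates 1 and 3 stood well below them. The combination was higher than AI-10-104 at a log2 fold change of 0.21 (SE 0.058, adjusted p = 0.034), while AI-10-104 against DMSO was -0.14 (SE 0.058, adjusted p = 0.19). Without AI-10-104 replicate 2, BIRC5 was lower with AI-10-104 than in DMSO at -0.23 (adjusted p = 0.0016), and the combination was higher than AI-10-104 at 0.29 (adjusted p = 0.00034). With each sample left out in turn, the difference between the combination and AI-10-104 was at least 0.16 and passed in 6 of 12 fits. AURKB, the kinase of the same complex, was at 73.1, 66.9 and 68.6 RPKM in DMSO, 63.9, 68.9 and 66.6 with AI-10-104 and 72.6, 71.2 and 74.2 with LEN+AI-10-104. The combination was above AI-10-104 in every sample (log2 fold change 0.13, SE 0.039, adjusted p = 0.045, passing in 3 of 12 fits with a sample left out), and both overlapped the DMSO samples.

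Neither anaphase gene passed in any comparison. CDC20, the activator of the anaphase-promoting complex, had means of 136 ± 12.2 RPKM in DMSO, 134 ± 2.4 with LEN, 135 ± 1.96 with AI-10-104 and 140 ± 5.48 with LEN+AI-10-104 (SD, n = 3 each). UBE2C, the ubiquitin-conjugating enzyme of that complex, was at 110, 100 and 98.9 RPKM in DMSO and 115, 116 and 109 with LEN+AI-10-104, overlapping in 1 sample of each group. Its log2 fold change was 0.14 (SE 0.042) and did not pass (adjusted p = 0.069).

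The centromere and kinetochore genes held the largest decrease that passed. CENPF (chromosome 1 from 214603185 to 214664574) encodes centromere protein F, a large kinetochore and nuclear matrix protein that accumulates in G2. It was at 77.3, 78.9 and 78.3 RPKM in DMSO, 80.1, 72.4 and 76.0 with LEN, 68.1, 62.1 and 64.7 with AI-10-104, and 64.2, 62.4 and 54.9 with LEN+AI-10-104. No sample with AI-10-104 reached the lowest sample without it, and the lowest value belonged to LEN+AI-10-104 replicate 3. CENPF fell by 22.8% with the combination (log2 fold change -0.37, SE 0.058, adjusted p = 0.0027) and fell by 16.9% with AI-10-104 (-0.27, SE 0.058, adjusted p = 0.025). With each sample left out in turn the estimate for the combination stayed between -0.42 and -0.30 and passed in 12 of 12 fits, and that for AI-10-104 stayed between -0.30 and -0.24 and passed in 8 of 12. The combination and AI-10-104 did not differ past the threshold (log2 difference -0.11, 95% interval -0.23 to 0.021, adjusted p = 0.22).

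CENPA (chromosome 2 from 26764289 to 26801067), the histone H3 variant that marks centromeres, was at 24.4, 21.2 and 22.9 RPKM in DMSO, 21.5, 20.8 and 22.7 with LEN, 19.8, 18.2 and 19.5 with AI-10-104, and 20.2, 18.0 and 19.1 with LEN+AI-10-104. Both groups with AI-10-104 lay below DMSO and LEN. The log2 fold change was -0.25 with AI-10-104 (SE 0.06, adjusted p = 0.038) and -0.26 with the combination (SE 0.06, adjusted p = 0.022), which passed in 6 and 8 of the 12 fits with a sample left out. In GENCODE, 138 exon bases of CENPA belong also to SLC35F6 on the same strand (7.67 to 8.98 RPKM). CENPE, a kinetochore kinesin, and NDC80, a subunit of the microtubule-binding NDC80 complex, ranged from 21.2 to 25.7 RPKM and from 38.7 to 44.2 RPKM over all samples and did not pass anywhere. NUF2, the partner of NDC80, had AI-10-104 samples at 75.6 to 79.6 RPKM, all below the DMSO samples at 79.7 to 86.3 RPKM, with a log2 fold change of -0.12 that did not pass (adjusted p = 0.13).

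The spindle genes moved in both directions. KIF2C (chromosome 1 from 44739818 to 44767767), a kinesin that depolymerizes microtubules at centromeres, was at 72.3, 71.4 and 66.0 RPKM in DMSO, 71.5, 70.3 and 70.7 with LEN, 61.1, 59.2 and 60.3 with AI-10-104, and 60.5, 62.2 and 59.7 with LEN+AI-10-104. The 6 samples with AI-10-104 were all below the 6 without it. The log2 fold change was -0.21 with AI-10-104 (SE 0.036, adjusted p = 0.0074) and -0.20 with the combination (SE 0.036, adjusted p = 0.0065). Between the combination and AI-10-104 it was 0.014, with a 95% interval of -0.065 to 0.093.

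TPX2 (chromosome 20 from 31739271 to 31801805), which activates Aurora A on spindle microtubules, was at 101, 97.6 and 94.7 RPKM in DMSO, 99.4, 97.0 and 96.9 with LEN, 89.6, 82.9 and 91.4 with AI-10-104, and 84.8, 82.5 and 83.2 with LEN+AI-10-104. It fell by 14.4% with the combination (log2 fold change -0.22, SE 0.039, adjusted p = 0.0048) and fell by 9.95% with AI-10-104 (-0.15, SE 0.039, adjusted p = 0.049). The latter passed in 1 of the 12 fits with a sample left out. DLGAP5, a kinetochore fiber protein also known as HURP, was at 27.7, 28.7 and 29.3 RPKM in DMSO, 27.2, 25.8 and 27.9 with AI-10-104, and 24.9, 25.9 and 25.2 with LEN+AI-10-104. With the combination it was lower in every sample (log2 fold change -0.17, SE 0.038, adjusted p = 0.017, passing in 9 of 12 fits with a sample left out), and with AI-10-104 the log2 fold change was -0.084 and did not pass (adjusted p = 0.23).

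KIF4A (chromosome X from 70290104 to 70420886), a chromosome-associated kinesin, was at 23.9, 22.5 and 22.7 RPKM in DMSO, 26.1, 24.7 and 25.6 with LEN, 20.6, 19.9 and 21.7 with AI-10-104, and 20.7, 21.3 and 21.5 with LEN+AI-10-104. The LEN samples were above DMSO and both groups with AI-10-104 were below it, without overlap. Against LEN the combination was lower at a log2 fold change of -0.27 (SE 0.04, adjusted p = 0.0033), whereas none of the comparisons with DMSO passed (0.14 with LEN, adjusted p = 0.15, -0.15 with AI-10-104, adjusted p = 0.053, and -0.13 with the combination, adjusted p = 0.078). KIF4B, a near-identical copy of this gene, was listed at 1.47 to 2.02 RPKM, and how the counting divided reads between the copies is not given in the sources used here.

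HMMR (chromosome 5 from 163460203 to 163491941) encodes the hyaluronan-mediated motility receptor, a spindle-associated protein, and was the only one of the 34 genes to pass as higher against DMSO. It was at 19.3, 18.5 and 20.0 RPKM in DMSO, 19.3, 18.4 and 20.0 with LEN, 26.7, 22.6 and 26.5 with AI-10-104, and 22.3, 21.0 and 22.8 with LEN+AI-10-104. LEN and DMSO were level, all samples with AI-10-104 were above them, and AI-10-104 replicate 2 was the lowest of its condition. HMMR rose by 30.6% with AI-10-104 (log2 fold change 0.39, SE 0.062, adjusted p = 0.0057), and its log2 fold change with the combination was 0.19 (SE 0.062, adjusted p = 0.083). The combination against AI-10-104 was at -0.19 (95% interval -0.33 to -0.057), which did not pass (adjusted p = 0.056), nor did the interaction (adjusted p = 0.35). Without AI-10-104 replicate 2 HMMR was at 0.46 with AI-10-104 (adjusted p = 0.00033), and the combination passed against DMSO (0.19, adjusted p = 0.021) and against AI-10-104 (-0.27, adjusted p = 0.0037). HMMR-AS1, on the opposite strand, was at 0 to 0.0692 RPKM.

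KIF11, the motor that pushes spindle poles apart, was at 55.2, 58.3 and 58.3 RPKM in DMSO, 58.6, 54.8 and 59.7 with AI-10-104, and 53.5, 53.0 and 49.9 with LEN+AI-10-104. The combination was lower than AI-10-104 (log2 fold change -0.15, SE 0.044, adjusted p = 0.046, passing in 3 of 12 fits with a sample left out), and against DMSO it was at -0.14 (adjusted p = 0.083). NUSAP1, a microtubule-bundling protein, ranged from 83.9 to 99.1 RPKM and did not pass in any comparison.

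**Figure D4:**
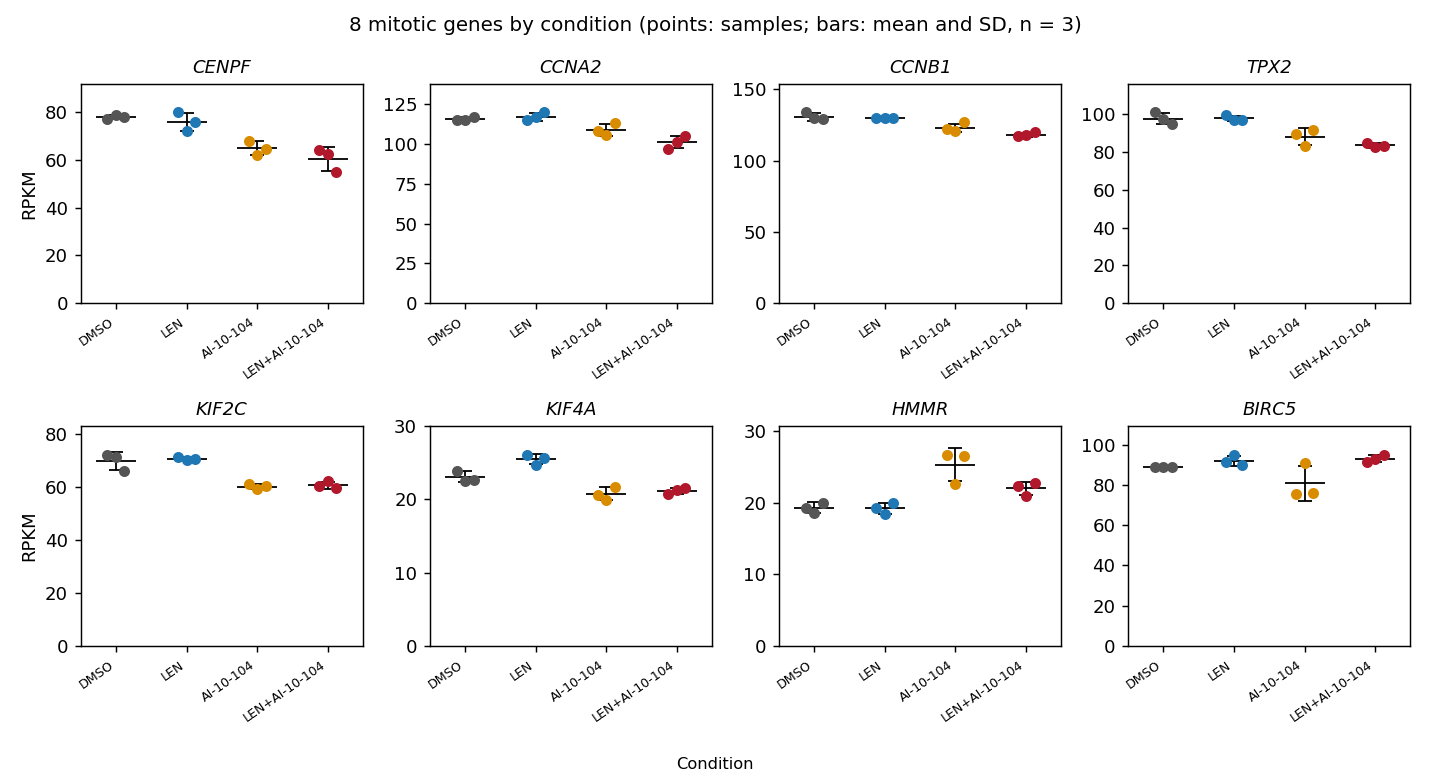
RPKM of 8 of the genes (vertical axes from 0) in the 4 conditions, with points for the samples in the order of their replicate numbers and bars for the mean and SD of the 3 replicates. CENPF, CCNA2, CCNB1, TPX2 and KIF2C step down in the conditions with AI-10-104, KIF4A is highest with LEN at 24.7 to 26.1 RPKM, HMMR is highest with AI-10-104, and BIRC5 has an AI-10-104 replicate 2 at 90.9 RPKM above the other replicates at 75.7 and 76.2 RPKM.

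Among the cytokinesis genes, ECT2 passed. ECT2 (chromosome 3 from 172750682 to 172821474), the exchange factor that activates RhoA at the division site, was at 14.6, 14.8 and 14.9 RPKM in DMSO, 15.5, 14.4 and 14.1 with LEN, 15.1, 13.5 and 14.5 with AI-10-104, and 13.3, 13.4 and 12.7 with LEN+AI-10-104. The combination lay below all other samples. Its log2 fold change was -0.17 (SE 0.048, adjusted p = 0.045), which passed in 3 of the 12 fits with a sample left out. ANLN, the contractile ring protein anillin, was at 27.4 to 27.8 RPKM in DMSO and 24.5 to 25.9 RPKM with the combination, at a log2 fold change of -0.13 that did not pass (adjusted p = 0.061). The central spindle genes KIF20A, KIF23 and PRC1 ranged from 12.8 to 14.9 RPKM, from 28.8 to 33.2 RPKM and from 41.7 to 47.7 RPKM over the 12 samples, and the groups overlapped DMSO in each condition.

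The proliferation markers did not pass in any comparison. MKI67, which encodes the Ki-67 antigen, was at 68.0, 66.4 and 63.7 RPKM in DMSO, 65.9, 62.6 and 64.7 with LEN, 72.4, 61.8 and 69.7 with AI-10-104, and 64.4, 62.3 and 57.0 with LEN+AI-10-104, so all treated groups overlapped DMSO. Its log2 fold change with the combination was -0.11 (95% interval -0.24 to 0.02, adjusted p = 0.29). TOP2A, the topoisomerase that untangles sister chromatids, was at 124 to 129 RPKM in DMSO and 114 to 121 RPKM with the combination, at -0.09 (95% interval -0.18 to -0.0021, adjusted p = 0.20).

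The difference between the combination and AI-10-104 moved with the base composition of the transcripts. Across the 34 genes, the log2 fold change of the combination against AI-10-104 had a Pearson r of 0.72 with the GC content of the longest transcript. With the log2 of the deposited gene length r was -0.52. Over the 10548 tested genes with a GC value the r with GC content and with length were 0.33 and -0.11. For the combination against DMSO they were 0.2 and -0.29 (0.15 and -0.08 over the tested genes), and for AI-10-104 against DMSO -0.32 and 0.11 (-0.2 and 0.03). For LEN against DMSO they were 0.03 and 0.14, and for the combination against LEN 0.19 and -0.34. The genes share the same 6 samples in each comparison and are not independent, so no p is given. BIRC5 and AURKB, the 2 genes higher in the combination than in AI-10-104, have 52.2% and 55.6% GC, and TTK and KIF11, the 2 lower ones, have 40.8% and 39.7%.

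After each sample was corrected for GC content and length, BIRC5, AURKB, TTK and KIF11 no longer passed between the combination and AI-10-104, and NUF2 (higher) and MKI67 (lower) did, which is 1 of 34 in each direction against 5.25% and 5.95% of all genes. The log2 difference went from 0.21 to 0.16 for BIRC5 (adjusted p = 0.08), from 0.13 to 0.032 for AURKB (adjusted p = 0.46), from -0.16 to -0.10 for TTK (adjusted p = 0.079) and from -0.15 to -0.073 for KIF11 (adjusted p = 0.13). Against DMSO the correction gave more genes: 13 lower and 1 higher with the combination (6.33% and 5.85% of all genes) and 11 lower and 1 higher with AI-10-104 (3.62% and 2.73%). The genes it added for the combination were KIF4A, KIF11, PLK1, CDC25C, ANLN and, as higher, HMMR. Before the correction, r of the relative level per sample with GC content was 0.22, -0.02 and -0.17 in DMSO and -0.06, 0.21 and -0.06 with LEN. It was -0.25, -0.02 and -0.29 with AI-10-104 and 0.22, 0.18 and 0.09 with LEN+AI-10-104. Fits without AI-10-104 replicate 2 thus keep the samples with the lowest r. The part of base composition in the differences between libraries was not tested beyond this correction.

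**Figure D5:**
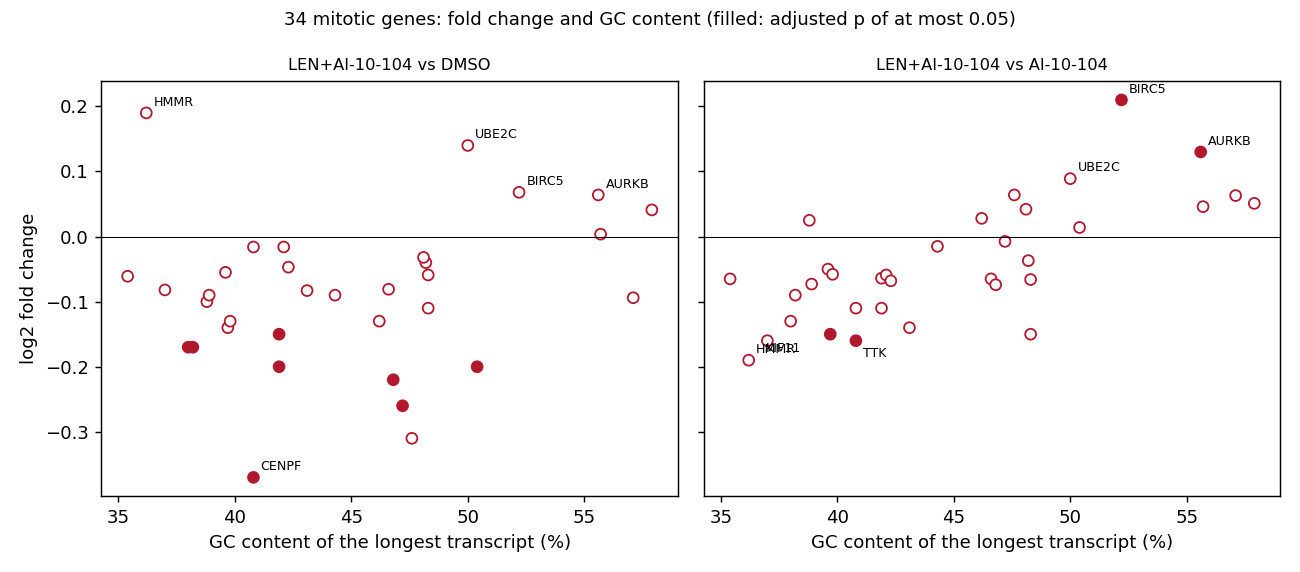
Log2 fold change (vertical axis) against the GC content of the longest GENCODE transcript in percent (horizontal axis) for the 34 genes, with LEN+AI-10-104 against DMSO on the left and against AI-10-104 on the right, and filled points for an adjusted p of at most 0.05. On the right the points climb from HMMR at -0.19 and 36.2% GC to BIRC5 at 0.21 and 52.2% GC (r = 0.72), and on the left there is little slope (r = 0.2).

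Other mitotic genes and genes of DNA replication were counted beside the 34. Of 89 other mitotic genes, 85 were tested, and the count with LEN was 0 in both directions. With AI-10-104, 11 of the 85 passed as lower and 1 as higher (2.46% and 2.09% of all genes), and 4 of the lower ones had the larger change (1.09% of all genes). With the combination 13 passed as lower and 1 as higher (3.0% and 5.64% of all genes), and 3 of the lower ones had the larger change (0.641%). Their median log2 fold changes were 0.0061, -0.056 and -0.05 with LEN, AI-10-104 and LEN+AI-10-104. The per-sample level of this list was -0.067, -0.095 and -0.041 with AI-10-104 and -0.068, -0.058 and -0.07 with the combination relative to DMSO, so here AI-10-104 replicate 2 was again the lowest of its condition, but replicates 1 and 3 were also below all DMSO samples (-0.01 to 0.009).

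The other mitotic genes with the smallest adjusted p among the larger changes are regulators and spindle proteins. With AI-10-104 these were CCNF, an F-box protein of G2, at 39.9, 38.4 and 36.6 RPKM in DMSO and 28.6, 30.8 and 30.0 with the drug (log2 fold change -0.36, SE 0.043, adjusted p = 0.00072), CDC25B, a CDK-activating phosphatase, at 51.8, 47.3 and 46.7 against 37.9, 38.2 and 39.2 RPKM (-0.34, SE 0.041, adjusted p = 0.00078), and ESPL1, the protease separase, at 21.5, 20.7 and 19.4 against 15.9, 15.2 and 16.4 RPKM (-0.37, SE 0.051, adjusted p = 0.0017). None of these groups overlapped, which is no further support because the genes were picked by adjusted p in the same comparison. With the combination they were PTTG1, the separase inhibitor securin, at 48.0, 45.6 and 46.5 against 36.1, 34.0 and 37.3 RPKM (-0.38, SE 0.041, adjusted p = 0.00022), CKAP2, a spindle microtubule protein, at 79.1, 83.9 and 84.2 against 65.8, 66.2 and 62.8 RPKM (-0.34, SE 0.041, adjusted p = 0.00049), and ASPM, a spindle pole protein, at 43.0, 45.9 and 45.8 against 37.4, 37.4 and 33.2 RPKM (-0.32, SE 0.06, adjusted p = 0.0075). All 3 were also without overlap, again after that choice. PTTG1 and CKAP2 were also lower with AI-10-104 than in DMSO (-0.31 and -0.26, adjusted p = 0.0014 and 0.005). ASPM missed the threshold there (-0.22, adjusted p = 0.058). With the combination against DMSO, CCNF and ESPL1 were lower as well (-0.25 and -0.29, adjusted p = 0.0055 and 0.0053). CDC25B did not pass there (-0.085, adjusted p = 0.24). In the combination CDC25B was higher than with AI-10-104 (0.25, adjusted p = 0.0049).

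The 50 DNA replication and G1/S genes were counted in the same way, beside the same shares of all genes. With LEN 0 of 50 passed (5 at an unadjusted p under 0.05). With AI-10-104, 4 were lower (CCNE1, UHRF1, MCM5 and TK1, against 2.46% of all genes) and 0 higher (2.09%), and with the combination 2 were lower (CCNE1 and MCM4, against 3.0%) and 1 was higher (CCNE2, against 5.64%). Their median log2 fold changes were -0.0053, -0.009 and -0.015. Whether the lists differed from each other was not tested.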

How the data were processed

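Polyadenylated RNA of OPM-1 cells was sequenced in 12 samples, 3 per condition. Per the labels and methods, the authors mapped the reads to GRCh38 with STAR and used DESeq2, and their notes also name FastQC and Cuffnorm. The file header credits the gene lengths to featureCounts, and the libraries were made with a directional kit. The annotation and the strand setting of the counting are not given in the sources used here. The authors deposited RPKM values beside these lengths, under a file name that says FPKM, which the plan had assumed. RPKM times length was a whole number of reads for 100% of values (tolerance 0.05 read), which gave reads per sample. These cover counting error only. Columns of other samples were absent.

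Genes averaging 0.5 RPKM or more (11241 of 38478) were tested as log2(RPKM + 0.1) with limma 3.58.1 (R 4.3.3, variance trend, 1 mean per condition, Benjamini-Hochberg). Replicates differed by more than sampling noise (chi-square per degree of freedom 1.81 to 8.93 over 12 pairs). Python 3.11.15, numpy 2.4.6, pandas 2.3.3 and matplotlib 3.10.9 were used for counts and plots. Coordinates and GC content came from GENCODE 44 (24715 symbols matched, 1233 through a synonym, 28 rows bear a date number), and promoters from RefSeq. Gene lengths were those deposited with the values. Symbols were matched directly or through older symbols. Named are all 34 genes and, of the other mitotic genes, up to 3 per comparison with DMSO and direction with the smallest adjusted p among those with the larger change. The DNA replication genes named, and those in overlaps or markers, are not covered by it and were picked with their values in view. The members and lists were chosen with earlier results of these data known. Alternatives were other pseudocounts, filters, scalings, variance models and thresholds, a replicate block, voom on the reads, a GC and length correction (lowess, span 0.3) and leaving out each sample. The procedure was run on simulated reads with changes larger than those of the 34 genes and no differences in base composition between samples. That run therefore does not cover changes of the size seen here.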

Additional observations from a re-analysis of the deposited data

How the results depend on the processing

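No direction of a called gene reversed. Of 240 gene and comparison results, 41 past the threshold, the alternatives with all samples left 2697 on their side of it, took 38 under it and brought 105 over it, and leaving out 1 sample gave 2764, 83 and 33. The cause of the changes below was not tested. Counts below that have no share of all genes beside them are not read as results about these genes. For the larger changes, AI-10-104 against DMSO (1 gene) gave 2 under a pseudocount of 0.01, a minimum mean of 1 RPKM, median-ratio rescaling, quantile normalization, the replicate block or voom, 5 with no fold threshold, 0 at a fold of 1.5 and 1 to 2 with a sample left out. LEN+AI-10-104 against DMSO (1) gave 2 under median-ratio rescaling, quantile normalization or the GC and length correction with and without the replicate block, 8 with no fold threshold, 0 at 1.5 and 0 to 1 with a sample left out. LEN+AI-10-104 against LEN (1) gave 7 with no fold threshold, 0 at 1.5 and 0 to 1 with a sample left out, and against AI-10-104 (0) it gave 4 with no fold threshold. The interaction (0) gave 0 to 4 with a sample left out. The mean level of the set in the combination relative to DMSO moved from -0.088 to -0.12 under median-ratio rescaling.

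At the adjusted p alone, the genes lower with AI-10-104 (4) numbered 1 with any RPKM above 0 or only the compared conditions, 2 without the variance trend, 7 with voom, 11 with the GC and length correction, 12 with that correction and the replicate block, and 1 to 5 with a sample left out, and those higher (1) numbered 1 to 3. Genes lower with LEN+AI-10-104 against DMSO (8) numbered 13 with the correction, 15 with correction and block, and 5 to 9 with a sample left out, and those higher (0) numbered 1 under quantile normalization, only the compared conditions, the block, voom or the correction with and without the block, and 0 to 1 with a sample left out. Against LEN, the lower genes (7) numbered 12 with the correction and 16 with correction and block, and the higher ones (0) 1 with the block or the correction with and without it, and 0 to 1 with a sample left out. Against AI-10-104, the lower genes (2) numbered 5 with a minimum mean of 1 RPKM, 0 with any RPKM above 0 or only the compared conditions, 7 with median-ratio rescaling or voom, 6 with the block, 1 without the trend or with the correction with and without the block, and 0 to 11 with a sample left out. The higher ones (2) numbered 0 with any RPKM above 0, only the compared conditions or no trend, 1 with median-ratio rescaling, the block or the correction with and without it, and 0 to 2 with a sample left out. Samples that shared a replicate number had a mean correlation of deviations of 0.0522 (18 pairs, 2 above 0.1) against -0.0261 for other pairs (36, 0 above 0.1). The number was not taken as a pairing in the main fit because the paper states no block, although the correlation was slightly higher within a number. The block gave 6 lower and 1 higher with AI-10-104 (3.11% and 2.81% of all genes). With the combination it gave 10 lower and 1 higher (3.72% and 6.84%). The promoter count (16) was 16 with TTTGAA alone and 14 in the last 150 bases.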
